A study of Mus musculus with 4 samples.

Results

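The neuregulin and ErbB genes counted here were 6 of the 21933 genes of a single-nucleus RNA-seq data set from mouse cortex: the ligand genes Nrg1, Nrg2 and Nrg3 and the receptor genes Erbb3, Erbb4 and Egfr. They were chosen by gene symbol, with their levels across cell types and their differences between genotypes in these same libraries already known from an earlier analysis, so the differences between genotypes given below for the 6 genes are descriptions and carry no test. Nuclei came from the right cortical hemisphere of adult males. 2 control animals (CrT+/y littermates) were compared with 2 CrT-KO animals (CrT-/y), which carry a constitutive deletion within Slc6a8, the X-linked gene of the creatine transporter, in every cell, with 1 animal and no treatment behind each library. The question was how loss of creatine transport changes expression in each cell population.

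The 4 libraries held 8282 to 9295 nuclei and 51507483 to 65240843 unique molecular identifiers (UMIs, 1 per captured RNA molecule). Of 35694 nuclei, 1236 were set aside as likely doublets and 33294 of the remaining 34458 could be named by marker genes, so each name used below (excitatory, inhibitory, oligodendrocyte, oligodendrocyte precursor or OPC, astrocyte, microglia, endothelial and pericyte, and the neuron subclasses) means "like that type". The members themselves were kept out of the genes used for clustering, but their levels in a population remain a description, because genes of the same nuclei defined it. Neurons were clustered again, and 10 of 29 inhibitory and 9 of 32 excitatory sub-clusters got no subclass name. Their nuclei count in the population but in no subclass. Astrocyte nuclei comprised a cluster of 494 and a cluster of 26 led by Tfap2d, Epha3 and Ptpro. Their mean standardised levels of astrocyte markers were 5.339 and 0.202, and the part of the latter in astrocyte values was not tested. Between 12 and 19 nuclear barcodes were shared by any pair of libraries. The targeted gene was lower in both CrT-KO libraries, with 348 and 334 Slc6a8 UMIs in the controls and 101 and 79 in CrT-KO, and edgeR called it in excitatory nuclei (log2 fold change -1.95 ± 0.17 SE, adjusted p = 0.00086).

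The genes differ greatly in size, which matters for nuclear RNA because it is rich in introns. On build GRCm38, Nrg1 (ENSMUSG00000062991) lies on chr8:31814551-32884029, Nrg3 on chr14:38368952-39473088 and Erbb4 on chr1:68032186-69108059, all on the minus strand. These 3 genes span 1069.5, 1104.1 and 1075.9 kb and rank 50, 43 and 49 from the longest of 21816 genes with an annotated length, whose median is 17.6 kb. Nrg2 (chr18:36017652-36197380, minus) spans 179.7 kb, Egfr (chr11:16752203-16918158, plus) 166.0 kb and Erbb3 (chr10:128567523-128589652, minus) 22.1 kb. No other counted gene overlaps any of the 6. Levels are therefore given as CPM, the UMIs of a gene per 1000000 UMIs of its population, and genes are compared with one another only as CPM per 100 kb of gene.

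Neuregulins are signalling proteins with an EGF-like domain, most of them made as membrane-anchored precursors that proteases cut. Their receptors are the tyrosine kinases ErbB3 and ErbB4, of which the product of Nrg3 binds ErbB4 and not ErbB3. These receptors pair with one another or with ErbB2, a co-receptor that binds no neuregulin itself, while EGFR binds EGF and its relatives. In the cortex, Nrg1 and Nrg3 are best known for their part in the wiring of ErbB4-bearing interneurons, and neuregulin signalling to ErbB receptors is also studied in myelinating glia.

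RefSeq promoter sequences (GRCm38.p6) were at hand for 3 of the 6, Nrg3, Erbb4 and Egfr. Nrg3 was the only ligand gene among them, so ligands could not be compared, and no link to RNA level was tested. The sequences are shown because Nrg3 had more of the dinucleotide CG than Erbb4 and Egfr. The CG counts of these receptor genes were close to one another. This dinucleotide, capitalised below, reads the same on both strands. Each run is the 250 bases before the annotated start, 5′ to 3′ on the strand of the gene, at chr14:39473089-39473338 for Nrg3, chr1:69108060-69108309 for Erbb4 and chr11:16751953-16752202 for Egfr.
Nrg3: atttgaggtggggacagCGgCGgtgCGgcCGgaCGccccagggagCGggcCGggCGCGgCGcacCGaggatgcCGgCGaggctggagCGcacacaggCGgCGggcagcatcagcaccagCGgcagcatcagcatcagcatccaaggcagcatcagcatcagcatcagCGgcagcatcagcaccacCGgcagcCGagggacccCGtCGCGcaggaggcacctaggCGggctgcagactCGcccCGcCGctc
Erbb4: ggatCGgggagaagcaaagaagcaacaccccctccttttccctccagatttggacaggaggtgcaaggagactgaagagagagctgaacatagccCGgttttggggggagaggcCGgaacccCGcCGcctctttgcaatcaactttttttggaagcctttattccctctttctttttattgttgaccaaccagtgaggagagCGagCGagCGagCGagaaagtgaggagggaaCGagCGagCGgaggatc
Egfr: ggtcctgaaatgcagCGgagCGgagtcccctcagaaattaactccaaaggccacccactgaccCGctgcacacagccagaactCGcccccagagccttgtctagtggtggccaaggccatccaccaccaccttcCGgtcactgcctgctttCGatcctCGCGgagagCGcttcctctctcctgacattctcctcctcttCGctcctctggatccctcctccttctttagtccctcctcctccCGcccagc
The Nrg3 window held 27 CG, a count reached by 8.56% of 32851 promoter windows of that length, whose median was 6. The Erbb4 window held 12, reached by 33.5% of windows, and the Egfr window 11, reached by 35.6%. These counts describe the letters of the windows, and no binding or methylation was measured.

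Per 100 kb of gene, Nrg3 was the most abundant of the ligands in excitatory and in inhibitory nuclei, and it was read in nearly every neuron. In excitatory nuclei its level was 8135 and 8790 CPM in the controls and 9495 and 9866 CPM in CrT-KO, and in inhibitory nuclei 5395 and 5692 against 5702 and 6007 CPM. Both CrT-KO libraries lay above both controls in each of these neuronal populations, by a wide margin in the former and a narrow one in the latter. Excitatory nuclei held 78.2% to 81.5% of a library's Nrg3 UMIs, and at least 99.97% of them in each library had at least 1 Nrg3 UMI.

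Nrg1 followed the same order of neurons and showed no separation by genotype there. It stood at 5809 and 6080 CPM in the control and 5988 and 5977 CPM in the CrT-KO excitatory nuclei, so that the CrT-KO values fell between the controls. Inhibitory nuclei read 3412 and 3550 against 3410 and 3578 CPM, again overlapping. The control mean in CPM per 100 kb was 766 for Nrg3, 556 for Nrg1 and 124 for Nrg2 in excitatory nuclei, and 502, 325 and 173 in inhibitory nuclei.

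Nrg2, the least abundant of the 3 ligands per 100 kb in these neurons, was highest in inhibitory nuclei. Its control level was 311 ± 9.96 CPM (SD, n = 2) in inhibitory, 223 ± 8.10 in excitatory and 214 ± 9.27 in OPC nuclei, the last 2 overlapping between libraries. Oligodendrocytes were lowest at 29.5 ± 1.22 CPM.

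The receptors differed from the ligands in their order of populations, but ligand and receptor RNA were also found in the same population. Inhibitory nuclei, highest for Erbb4, were highest for Nrg2 too and came next after excitatory nuclei for Nrg3. Erbb4 was an inhibitory gene first, with 5672 and 5925 CPM in the controls and 5246 and 5893 CPM in CrT-KO, overlapping between genotypes, and 76.2% to 77.7% of its UMIs in inhibitory nuclei. OPCs came next at 3537 and 3837 against 3579 and 4385 CPM, then oligodendrocytes at 2991 and 2872 against 2494 and 2662 CPM. In oligodendrocytes both CrT-KO libraries lay below both controls, while in OPCs the genotypes overlapped.

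In excitatory nuclei Erbb4 was 113 to 145 CPM over the 4 libraries, the lowest level of any population. A UMI was still seen in 42.8% to 50.8% of excitatory nuclei, whose median depth per library was 7294 to 8843 UMIs. After thinning every nucleus to 500 UMIs the share was 4.75% to 6.66% in excitatory nuclei, 19.0% to 26.4% in microglia, which should lack the gene and had median depths of 879.5 to 1032.5 UMIs, and at least 98.7% in the PV interneurons described below. After thinning the pooled excitatory share was below the microglial one. Without thinning, control 1 held 3938 Erbb4 UMIs in 3977 excitatory nuclei and 226 in 464 microglial nuclei. The nuclei differed in depth before thinning, so the order of the thinned shares cannot tell RNA of the nucleus from free RNA. The excitatory level was also uneven. In the control means Erbb4 stood at 768 CPM in 291 L4/5 IT nuclei led by Adamts6 and Reln and at 428 CPM in 993 L2/3 IT nuclei led by Ndst4, against 534 CPM in microglia. The part of free RNA in these levels was not tested.

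Erbb3, whose kinase domain is weak and which signals through its partners, was an oligodendrocyte-lineage gene. It counted 98 and 104 UMIs in control and 80 and 78 UMIs in CrT-KO oligodendrocytes, or 66.2 and 50.5 against 50.8 and 45.9 CPM, and the genotypes overlapped. OPCs held 16, 16, 19 and 10 UMIs, or 34.2 and 31.0 against 39.9 and 32.8 CPM, overlapping as well. Neurons had at most 6 UMIs in any population of a library.

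No Erbb3 UMI was seen in microglia or in endothelial and pericyte nuclei. A count of 0 allows up to 4.70 to 6.46 CPM in microglia and 17.2 to 44.0 CPM in endothelial and pericyte nuclei (3 counts per library, counting error only). The limit for endothelial and pericyte nuclei reaches into the range of the OPC level, so a level of that size was not detectable there in the smallest library. Astrocytes had 1 UMI in each control and 0 in each CrT-KO library, too few for a comparison.

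Because Erbb3 is so short, its CPM understates it beside Erbb4. In control oligodendrocytes Erbb3 reached 299 and 228 CPM per 100 kb and Erbb4 278 and 267 CPM per 100 kb, so the 2 receptors overlapped on that scale. In control OPCs Erbb3 was at 155 and 140 and Erbb4 at 329 and 357 CPM per 100 kb, and the receptors did not overlap. Scaling by gene length is a rough correction for nuclear RNA, since long introns do not all contribute equally to 3′ end reads.

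Egfr was highest in astrocytes, with 611 and 543 CPM in the controls and 525 and 519 CPM in CrT-KO, both CrT-KO libraries below both controls by little. It was followed by endothelial and pericyte nuclei, which ranged from 191 to 482 CPM over 13 to 79 UMIs per library and overlapped between genotypes. Inhibitory nuclei averaged 95.1 ± 9.76 CPM in the controls and yet held 67.4% to 76.2% of all Egfr UMIs, against 6.61% to 13.3% in the far fewer astrocytes. Excitatory nuclei were at 1.81 to 2.43 CPM.

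**Figure D1:**
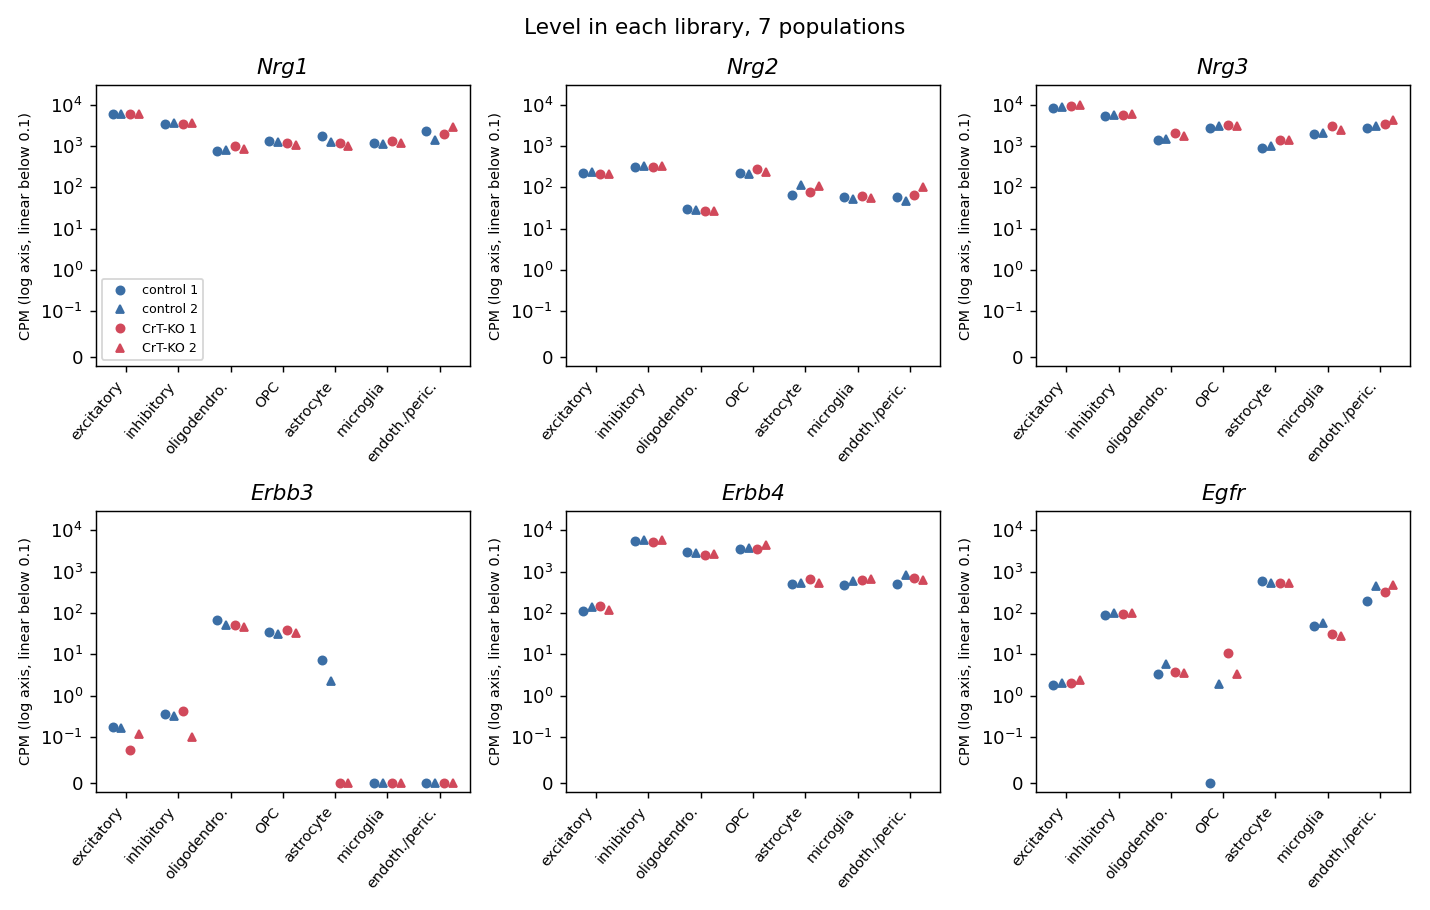
Level of each of the 6 genes in CPM (log axis, linear below 0.1) in 7 populations, with a point for each library (circles replicate 1, triangles replicate 2, blue control, red CrT-KO). Nrg1 and Nrg3 are highest in excitatory, Nrg2 and Erbb4 in inhibitory, Erbb3 in oligodendrocyte and Egfr in astrocyte nuclei, and the 4 libraries of a population lie close together except where UMIs are few.

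The inhibitory average hid very different neurons. Erbb4 was highest in PV interneurons, at 15158 and 16882 CPM in control and 15226 and 15554 CPM in CrT-KO libraries. VIP interneurons followed at 12769 and 13063 against 11456 and 12243 CPM, and LAMP5 interneurons at 11838 and 12875 against 11659 and 12184 CPM. Control VIP and LAMP5 libraries overlapped, and PV lay above both of them in all 4 libraries.

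SST interneurons had far less Erbb4, with 2578 and 2469 CPM in control and 2615 and 2803 CPM in CrT-KO. The PV level was 6.35 times the SST level for Erbb4 in the control means and 5.55 to 6.84 times over the 4 libraries. Nuclei with striatal medium spiny neuron (MSN) markers, which a cortical dissection would not be planned to hold, stood at 654 and 727 against 839 and 887 CPM. The CrT-KO libraries were above the controls in SST and MSN and below them in VIP.

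SST nuclei were not uniform for Erbb4 either. A sub-cluster of 273 SST nuclei led by Trhde, Lypd6 and Lypd6b averaged 6748 CPM in the controls, while sub-clusters led by Lama4 (549 nuclei) and by Plpp4 (141 nuclei) averaged 1268 and 323 CPM. Among MSN sub-clusters Erbb4 ran from 137 CPM in 39 nuclei led by Agtr1a (23 UMIs in all) and 147 CPM in 644 nuclei led by Drd2 and Penk, markers of the indirect pathway, to 2380 CPM in 148 nuclei led by Fign. In PV sub-clusters the range was 15277 to 20394 CPM.

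Egfr divided the same interneurons in another way. It was high in LAMP5 nuclei, at 857 and 804 CPM in control and 874 and 949 CPM in CrT-KO, with 87.8% to 92.0% of nuclei holding a UMI. VIP nuclei read 689 and 616 against 599 and 514 CPM, with 63.8% to 72.2% of nuclei holding a UMI. PV nuclei, though of greater median depth (6078 to 7150 UMIs against 4485 to 5101 in VIP), held an Egfr UMI in 1.90% to 2.89% of cases. After thinning to 500 UMIs the shares were 26.8% to 31.3% in LAMP5, 19.3% to 27.8% in VIP and up to 0.957% in PV nuclei.

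Both CrT-KO libraries lay above the controls for Egfr in LAMP5 and below them in VIP nuclei. Within VIP, 450 nuclei led by Vip and Igf1 had 888 CPM of Egfr and 187 nuclei led by Cobll1 had 145 CPM in the control mean. The latter were instead the highest of the inhibitory sub-clusters for Nrg3, at 15012 CPM against 6548 CPM in the former. They made up 36 of 151 and 45 of 159 VIP nuclei in the controls and 63 of 177 and 43 of 150 in CrT-KO, and the part of this mix in the VIP differences was not tested.

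Among the named inhibitory subclasses MSN nuclei were highest for Nrg1 and lowest for Erbb4 in the control means. The other subclasses did not show a reversed order, and SST was lowest for Nrg1 and below PV, VIP and LAMP5 for Erbb4. MSN nuclei read 6912 and 7488 CPM in control and 6311 and 7540 CPM in CrT-KO, PV nuclei 1083 and 1101 against 1167 and 1053 CPM, and SST nuclei 728 and 838 against 1046 and 812 CPM. The Nrg1 level of MSN was 6.59 times that of PV nuclei in the control means and 5.41 to 7.16 times over the 4 libraries. The genotypes overlapped in all 3. MSN nuclei held 15681 of the 37924 and 20530 of the 45013 inhibitory Nrg1 UMIs in the controls, and 20637 of 47275 and 14062 of 35572 in CrT-KO. A sub-cluster of 544 inhibitory nuclei that scored best as MSN stayed unnamed, and its UMIs are not in the MSN counts.

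VIP was the interneuron subclass in which Nrg1 separated by genotype, with 1670 and 1941 CPM in control and 1524 and 1258 CPM in CrT-KO, both lower. Among MSN sub-clusters, Nrg1 was 8594 and 8356 CPM in the nuclei led by Drd2 or Adora2a and 846 CPM in the 189 nuclei led by Folh1 and Drd3. Over 18 types the Pearson correlation of log2(CPM + 1) between Nrg1 and Erbb4 was -0.74, a description over types that share libraries and differ in depth.

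Excitatory subclasses differed in Nrg1 far more than in Nrg3. The L2/3 IT marker list summed to 8250 to 8845 CPM in L2/3 IT and 8908 to 10405 CPM in L4/5 IT nuclei. The L4/5 IT list summed to 4710 to 5234 CPM there and 4279 to 5237 CPM in L5 IT nuclei, so these names are approximate. L4/5 IT neurons had the most Nrg1, 8505 and 9099 CPM in control and 8997 and 9135 CPM in CrT-KO, and L5 ET neurons, which project out of the cortex, the least, 2628 and 2667 against 2500 and 2498 CPM. The ratio of L4/5 IT to L5 ET for Nrg1 was 3.32 in the control means and 3.24 to 3.66 over the 4 libraries. Between them, L5 IT, L6 IT, L2/3 IT and L6 CT neurons lay at 5488 to 5815 CPM in the control means, and each neighbour in that order overlapped the next when all 4 libraries were counted. The genotypes overlapped in L4/5 IT and did not in L5 ET.

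For Nrg3 the excitatory subclasses ran from 7647 CPM in L2/3 IT to 10892 CPM in L6b in the control means. L6b lay above every other excitatory subclass in all 4 libraries, and among these subclasses from L6 CT down to L2/3 IT each neighbour overlapped the next. MSN nuclei were the poorest in Nrg3 of the 13 named neuron subclasses, with 1880 and 2230 CPM in control and 2399 and 2460 CPM in CrT-KO, whereas VIP nuclei had 8879 and 9602 against 11323 and 10165 CPM.

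Nrg2 was highest in MSN in the controls and in LAMP5 nuclei in CrT-KO. MSN read 477 and 439 CPM in control and 438 and 454 CPM in CrT-KO, the genotypes overlapping. LAMP5 nuclei had 402 and 418 against 551 and 539 CPM, a separation on 170, 330, 384 and 287 UMIs. Both CrT-KO libraries were higher in LAMP5, VIP, SST and L5/6 NP and lower in several excitatory subclasses, of which L2/3 IT read 257 and 270 against 248 and 248 CPM.

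**Figure D2:**
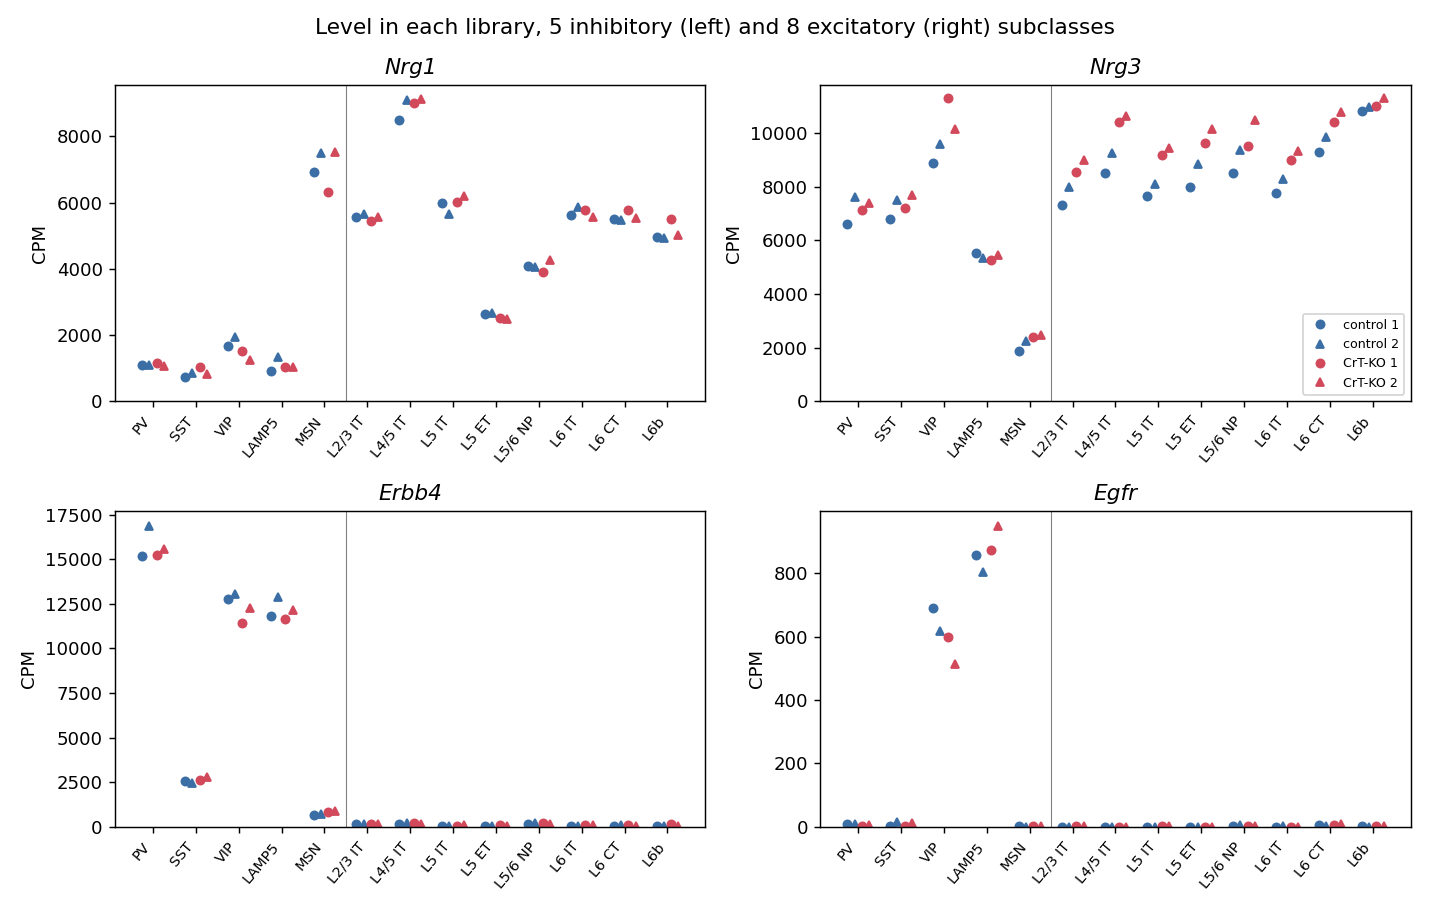
Level in CPM (linear axes from 0) of Nrg1, Nrg3, Erbb4 and Egfr in 5 inhibitory and 8 excitatory subclasses, with a point for each library (circles replicate 1, triangles replicate 2, blue control, red CrT-KO). Erbb4 is highest in PV, VIP and LAMP5, Egfr is high in VIP and LAMP5 nuclei, and MSN nuclei stand with the excitatory subclasses for Nrg1 and at the bottom for Nrg3.

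The neuregulin RNA of glia and vessels has to be read beside RNA from excitatory neurons, which held most UMIs of Nrg1 and Nrg3 and whose RNA can reach other nuclei as free RNA. A list of 14 excitatory markers, all of them detected in each population, serves for comparison. In microglia the list summed reached 17.4% to 21.6% of its level in excitatory nuclei of the same library. Nrg1 in microglia reached 18.6% to 22.4%, Nrg2 23.3% to 29.3% and Nrg3 23.6% to 31.4% of the excitatory level. Each ligand lay above the summed markers in all 4 libraries, Nrg1 by little, but taken singly 6 of the 14 markers were below Nrg1 in every library, 8 below Nrg2 and 8 below Nrg3. Slc17a7, at 24.2% to 36.5%, was above Nrg1 and overlapped the other ligands.

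Oligodendrocytes gave 12.9% to 15.5% for the summed markers, 12.98% to 17.0% for Nrg1, 12.5% to 14.0% for Nrg2 and 17.1% to 21.1% for Nrg3. In these nuclei Nrg1 and Nrg2 overlapped the sum and Nrg3 lay above it, with 9 of 14 single markers below Nrg3 in every library and 3 above. In OPCs the sum stood at 18.8% to 21.1%, against 17.8% to 22.8% for Nrg1, 90.5% to 132% for Nrg2 and 31.6% to 34.7% for Nrg3. Nrg1 overlapped the sum, and Nrg2 and Nrg3 were above it. Taken singly, 9 of the 14 markers lay below Nrg1 in every library and 2 above. All 14 single markers lay below Nrg2 in every library and 11 below Nrg3, Arpp21 at 32.6% to 39.2% overlapping it. Astrocytes had the sum at 9.76% to 13.3%, Nrg1 at 16.7% to 29.9%, Nrg2 at 29.8% to 53.0% and Nrg3 at 11.1% to 14.9%, the last overlapping the sum. These astrocyte values include the 26 nuclei of low astrocyte marker level. In endothelial and pericyte nuclei the sum reached 23.4% to 41.6%, a range that overlapped those of all 3 ligands. Nrg3, at 33.0% to 42.7%, lay above the sum within each library there, while Nrg1 and Nrg2 did not in every library.

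The same reading for Erbb4 takes inhibitory nuclei as the source. The 15 inhibitory markers summed reached 11.2% to 13.6% of the inhibitory level in microglia and 10.8% to 12.8% in astrocytes, and Erbb4 reached 8.57% to 11.7% and 8.78% to 12.5%, below the sum in all 4 libraries. In oligodendrocytes the sum was at 9.18% to 10.7% and Erbb4 at 45.2% to 52.7%, with 12 of 15 single markers below Erbb4 in every library. In OPCs the sum was at 46.2% to 65.9% and Erbb4 at 62.3% to 74.4%, above the sum within each library, with 11 single markers below it in every library and 3 above. The part of free RNA in these values was not tested.

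**Figure D3:**
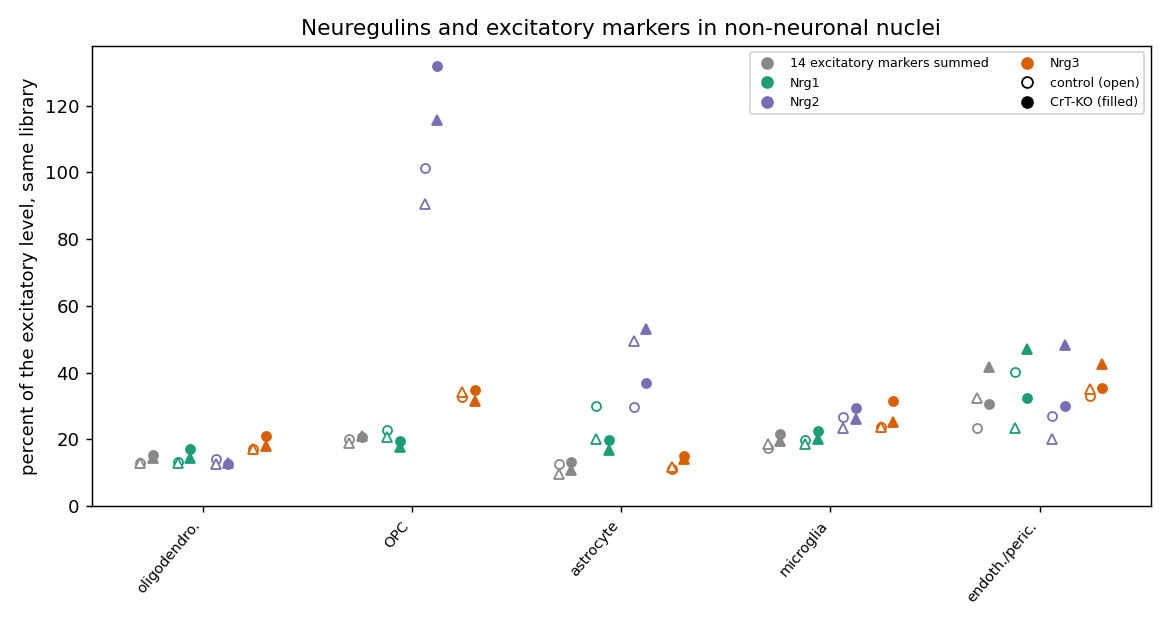
Level of 14 summed excitatory markers (grey), Nrg1, Nrg2 and Nrg3 in 5 non-neuronal populations, as percent of the excitatory level of the same library (open control, filled CrT-KO, circles replicate 1, triangles replicate 2). Nrg2 and Nrg3 stand above the summed markers in OPCs, where Nrg1 overlaps them. In endothelial and pericyte nuclei the ranges of all 3 ligands overlap theirs, with Nrg3 above them within each library.

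Genotype was compared in each of the 7 populations with edgeR on UMIs summed per library. It called 28 of 13979 genes in excitatory (0.2%), 9 of 12793 in inhibitory (0.0704%), 47 of 8904 in oligodendrocyte (0.528%), 1 of 5868 in OPC (0.017%), 1 of 5134 in astrocyte (0.0195%), 3 of 7244 in microglial (0.0414%) and 0 of 3250 in endothelial and pericyte nuclei (0%; 3.42% of the genes there had an unadjusted p under 0.05), at an adjusted p under 0.1. None of the 6 members was called in any population, which is a description, because they were chosen with this contrast known. Nrg3 passed the threshold in microglia with no filter on low counts. It also did so in excitatory, oligodendrocyte and microglial nuclei with the replicate number as a block, although no label says that a number marks paired animals. For the same reason these calls of Nrg3 are no evidence of a difference. After the filter on low counts 5 members were tested in 6 of the populations and 4 in endothelial and pericyte nuclei, Erbb3 passing in oligodendrocytes and OPCs alone.

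Nrg3 was the member whose CrT-KO libraries both lay above both controls in 7 of 7 populations and in 10 of 13 neuron subclasses, PV, SST and LAMP5 being the exceptions. Of all genes with at least 15 UMIs over the 4 libraries, the share that did so was 11.9% in excitatory, 13.7% in inhibitory, 19.5% in oligodendrocyte, 16.5% in OPC, 16.5% in astrocyte, 17.6% in microglial and 16.7% in endothelial and pericyte nuclei. In the subclasses it was 15.8% in PV, 14.7% in SST, 17.5% in VIP, 15.8% in LAMP5, 15.2% in MSN, 12.4% in L2/3 IT, 14.3% in L4/5 IT, 15.1% in L5 IT, 13.2% in L5 ET, 14.3% in L5/6 NP, 13.3% in L6 IT, 14.3% in L6 CT and 14.6% in L6b neurons. In either direction, libraries of the genotypes did not overlap for 40.5%, 32.2%, 36%, 34.8%, 32.9%, 35% and 33.3% of these genes in the 7 populations, in the same order. These counts are not independent, since subclasses are parts of populations, the same 4 animals stand behind all of them, and free RNA can carry Nrg3 between nuclei.

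The fitted log2 fold change of Nrg3 was 0.24 ± 0.07 (SE, n = 2 per genotype) in excitatory and 0.10 ± 0.10 in inhibitory nuclei. It was 0.36 ± 0.11 in oligodendrocytes, where the libraries read 1395 and 1508 CPM in control and 2004 and 1785 CPM in CrT-KO, and 0.18 ± 0.11 in OPCs. In astrocytes it was 0.52 ± 0.17, from 906 and 1025 against 1411 and 1385 CPM, and in microglia 0.45 ± 0.12, from 1922 and 2087 against 2979 and 2499 CPM. Endothelial and pericyte nuclei gave 0.40 ± 0.29.

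Markers of excitatory neurons moved in part with Nrg3 in these nuclei. In oligodendrocytes the 14 summed excitatory markers read 1432 and 1391 CPM in control and 1679 and 1490 CPM in CrT-KO, both higher, as Nrg3 was. Taken singly, 7 of the 14 were higher in both CrT-KO libraries there, 1 was lower in both and 6 overlapped. In microglia the sum was at 1919 and 1986 against 2343 and 2001 CPM, again higher in both, while 11 of the 14 single markers overlapped, 2 were higher and 1 was lower. The sum overlapped between genotypes in astrocytes, OPCs and endothelial and pericyte nuclei. As a share of the excitatory Nrg3 level, oligodendrocyte Nrg3 was 17.1% and 17.2% in control and 21.1% and 18.1% in CrT-KO, and microglial Nrg3 23.6% and 23.7% against 31.4% and 25.3%. The part of excitatory RNA in the glial Nrg3 difference was not tested.

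**Figure D4:**
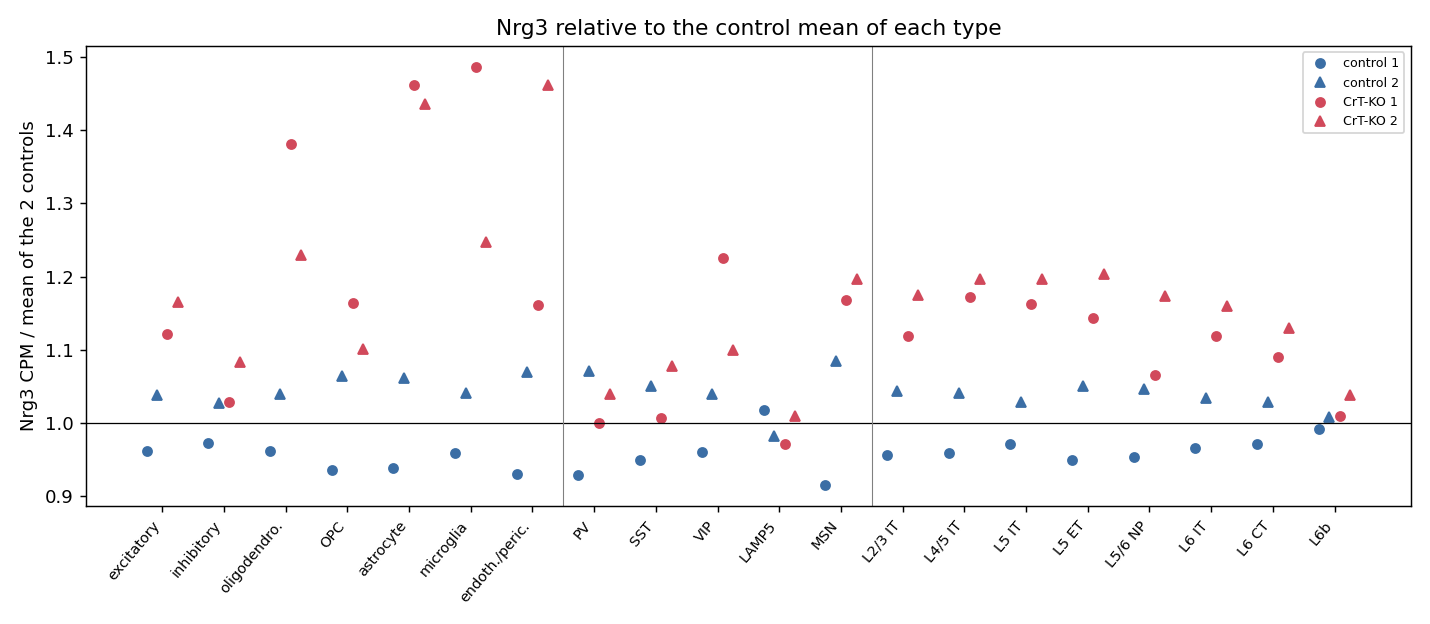
Nrg3 level of each library divided by the mean of the 2 control libraries of that type, in 7 populations, 5 inhibitory and 8 excitatory subclasses (circles replicate 1, triangles replicate 2, blue control, red CrT-KO, line at the control mean). Red points lie above blue ones in all types but PV, SST and LAMP5.

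The other 2 megabase genes did not share this pattern. Nrg1 was higher in both CrT-KO libraries in oligodendrocytes (0.25 ± 0.11 on the log2 scale) and microglia (0.16 ± 0.12), lower in OPCs (-0.19 ± 0.12) and astrocytes (-0.41 ± 0.18), and overlapped in the other 3 populations. The astrocyte value compares 1739 and 1225 CPM with 1191 and 1001 CPM, the first control library resting on 63 nuclei. It was -0.19 without control replicate 1 and -0.64 without control replicate 2. With doublets kept, the Nrg1 difference was 0.04 in oligodendrocytes and -0.43 in OPCs. Erbb4 was lower in CrT-KO oligodendrocytes (-0.20 ± 0.11), higher in astrocytes (0.20 ± 0.19) and microglia (0.26 ± 0.13), and overlapped in the other 4.

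Nrg2, Erbb3 and Egfr gave smaller counts and wider errors. Nrg2 stood at 220 and 207 CPM in control and 281 and 240 CPM in CrT-KO OPCs, a log2 fold change of 0.30 ± 0.18. Erbb3 gave -0.27 ± 0.19 in oligodendrocytes and 0.19 ± 0.37 in OPCs with overlapping libraries. The former was -0.09 without control replicate 1 and -0.47 without control replicate 2. Egfr gave -0.81 ± 0.33 in microglia, the largest fitted difference of any member, from 22 and 36 UMIs in control and 19 and 15 UMIs in CrT-KO. That microglial Egfr level, 27.9 to 56.4 CPM, was seen in 1.71% to 2.59% of microglia.

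**Figure D5:**
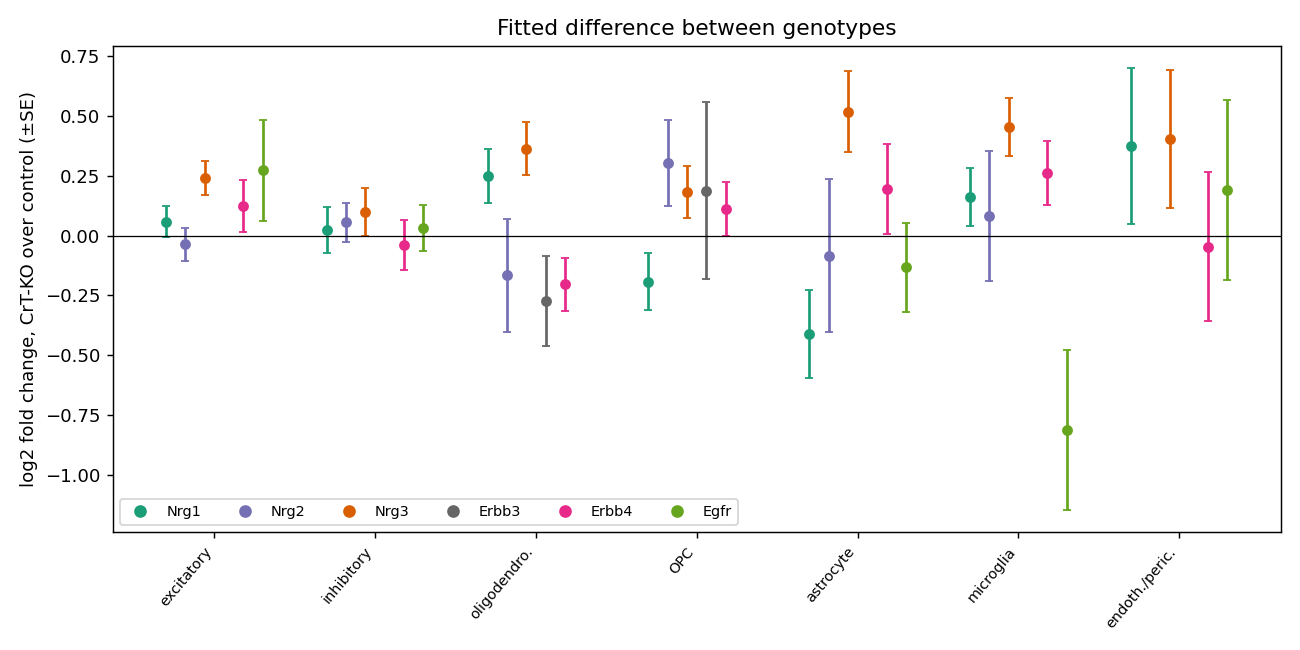
Fitted log2 fold change of CrT-KO over control with its SE (bars) for each member that passed the filter on low counts in each of 7 populations. Nrg3 is above 0 in all 7, and the other members lie on both sides of 0.

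Erbb2 and Nrg4, the remaining ErbB receptor and neuregulin genes, were low. Erbb2 had 1 to 6 UMIs in a whole library and 0 in oligodendrocytes and OPCs, and its partner role there could not be read at this depth (0 counts in oligodendrocytes allow up to 1.46 to 2.03 CPM). Nrg4 stood at 7.60 to 8.69 CPM in excitatory nuclei, and at 12.9 and 11.4 CPM in control against 16.4 and 15.4 CPM in CrT-KO inhibitory nuclei. Nrg4 was not called there (log2 fold change 0.41 ± 0.15, edgeR adjusted p = 0.943). In PV nuclei Nrg4 read 16.9 and 14.8 against 25.5 and 26.0 CPM, on 34 to 63 UMIs per library. Erbb2 overlaps Mien1 and Nrg4 overlaps Fbxo22, each pair on opposite strands, and whether any read was given to the wrong gene was not tested.

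Of 82 other genes of the pathway, listed by role, none was called in any population. The list held 8 other ligands of the EGF family, 1 receptor, 14 proteases of neuregulins and their partners, 18 negative regulators and ubiquitin ligases, 17 adaptors and 24 kinases and effectors. In excitatory nuclei 75 were tested, with a median log2 fold change of 0.02 beside -0.00 over all genes, and 9.33% had an unadjusted p under 0.05, beside 9.01% of all genes. In inhibitory nuclei 74 were tested, with 9.46% beside 4.96%, in oligodendrocytes 63, with 6.35% beside 7.13%, in OPCs 55, with 1.82% beside 5.25%, in astrocytes 49, with 4.08% beside 4.25%, in microglia 53, with 5.66% beside 6.24%, and in endothelial and pericyte nuclei 36, with 2.78% beside 3.42%.

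The pathway genes closest to the threshold, named after their values were seen, were in excitatory and oligodendrocyte nuclei. The adaptor gene Shc3 read 134 and 146 CPM in control and 171 and 166 CPM in CrT-KO excitatory nuclei (log2 fold change 0.32 ± 0.07, edgeR adjusted p = 0.205). Adam19, a metalloprotease gene whose product can cut neuregulin precursors, read 28.5 and 31.0 against 21.8 and 21.9 CPM (-0.40 ± 0.09, edgeR adjusted p = 0.215). In oligodendrocytes Mapk3, which encodes the kinase ERK1, read 5.40 and 5.35 against 14.6 and 12.4 CPM (1.29 ± 0.40, edgeR adjusted p = 0.209), and Errfi1, whose product inhibits EGFR-family kinases, 109 and 135 against 94.6 and 88.4 CPM (-0.45 ± 0.14, edgeR adjusted p = 0.240). The libraries of the 2 genotypes did not overlap for any of these 4, and none passed the threshold.

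The genes most like each member across types were found by Pearson correlation of log2(CPM + 1) over 18 types and 11758 genes, as a description with no test. They were Celf2 (0.93) and Lrrc6 (0.92) for Nrg1, Fgf14 (0.94) and Lrrn2 (0.91) for Nrg2, and Vsnl1 (0.97) and Shank1 (0.96) for Nrg3. Erbb3 was closest to Zfp488 (0.98) and Sox10 (0.96), Erbb4 to Dusp10 (0.92) and Btbd11 (0.91), and Egfr to Fmo1 (0.89) and Gnl3 (0.85). Sox10 is a transcription factor of the oligodendrocyte lineage and was, like the PV marker Btbd11, among the markers used to name the nuclei.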

How the data were processed

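Single-nucleus libraries (10x Genomics 3′ chemistry) were made by the authors from 4 animals, and the deposited matrices hold UMI counts per gene and nucleus, made with Cell Ranger 3.1.0 on GRCm38 with introns counted, filtered on nuclei before deposit and not normalized. The replicates are separate animals. Counts were used as deposited. Doublets were called with Scrublet in scanpy 1.11.5, nuclei were clustered on 3000 variable genes without the members (30 principal components, resolution 1.0), and clusters with at least 3 detected markers of a type were named. Rules of naming were adjusted after the matrices were seen. UMIs were summed per library and type. CPM used these sums. edgeR 4.0.16 (quasi-likelihood, TMM, filterByExpr, Benjamini-Hochberg over all genes tested, called at an adjusted p under 0.1) compared the genotypes, and was tested on simulated data. The members and gene lists were chosen with earlier results of these data known. Named genes were the 6 members, Slc6a8, Nrg4, Erbb2, called pathway genes and the 2 genes most like each member. Other genes, such as 4 uncalled pathway genes and leading genes of clusters, were named after their values were seen. Excitatory and inhibitory markers summed were those used to name nuclei, 1 excitatory marker not being reported here. Alternatives are given in the closing section.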

Additional observations from a re-analysis of the deposited data

Results flagged for a closer look

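In 4 members both CrT-KO libraries lay above both controls in some populations and below both in others. The log2 fold change of Nrg1 was 0.25 in oligodendrocytes and 0.16 in microglia but -0.19 in OPCs and -0.41 in astrocytes. Nrg2 gave 0.30 ± 0.18 (SE) in OPCs against -0.037 ± 0.068 in excitatory nuclei and -0.17 ± 0.24 in oligodendrocytes. Its excitatory value ran from -0.096 to 0.023 over the alternatives described below. Erbb4 gave 0.20 in astrocytes and 0.26 in microglia against -0.20 in oligodendrocytes. Egfr gave 0.27 ± 0.21 in excitatory nuclei, on 63 to 85 UMIs per library, against -0.13 ± 0.19 in astrocytes and -0.81 ± 0.33 in microglia. The difference between populations was not tested in any of these cases, and of all genes with at least 15 UMIs over the 4 libraries 32.2% to 40.5% had libraries that did not overlap between genotypes in a given population.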

How the results depend on the processing

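The call of no member at an adjusted p under 0.1 held in inhibitory, OPC, astrocyte and endothelial and pericyte nuclei under every alternative run, with DESeq2 among them. Nrg3 was called, so that 1 member was called in place of 0, in excitatory, oligodendrocyte and microglial nuclei when the replicate number was fitted as a block. The same held in microglia with no filter on low counts. The members were chosen with this contrast known, so these calls describe how the fits differ and are no evidence. Of 34 fold changes of members, 23 kept their sign in all 9 alternatives, Nrg3 among them in 7 of 7 populations, with a range of 0.17 to 0.32 in excitatory, 0.02 to 0.17 in inhibitory and 0.06 to 0.31 in OPC nuclei. Keeping doublets moved Nrg3 in astrocytes from 0.52 to 0.29, Nrg1 in oligodendrocytes from 0.25 to 0.04 and Nrg1 in OPCs from -0.19 to -0.43. Erbb4 in its highest population averaged 5548 CPM as a mean over nuclei, and Egfr 524 CPM with doublets kept, and no alternative changed which population was highest for any member.

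Counts of genes called depended on the fit. With DESeq2 they were 74 in excitatory, 1 in oligodendrocyte, 0 in OPC and 0 in microglial nuclei. With no filter they were 12 in excitatory, 59 in inhibitory, 80 in oligodendrocyte, 6 in OPC, 4 in astrocyte, 9 in microglial and 1 in endothelial and pericyte nuclei. Keeping doublets gave 8 in OPCs. With no TMM scaling, chosen after seeing the data, they were 13 in excitatory, 0 in OPC and 2 in astrocyte nuclei, and that scaling moved the median fold change of all genes by at most 0.05. Leaving out a library gave 1 to 203 in excitatory, 30 to 78 in inhibitory, 36 to 94 in oligodendrocyte, 0 to 4 in OPC, 3 to 15 in astrocyte, 3 to 35 in microglial and 0 to 14 in endothelial and pericyte nuclei, the lone library of a genotype being assumed to vary like the other group. Pathway genes called in excitatory nuclei were 1 with DESeq2 and 0 to 2 over the libraries left out. The cause of these changes was not tested.

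With the replicate block, genes called were 452 in excitatory, 132 in inhibitory, 203 in oligodendrocyte, 8 in OPC, 0 in astrocyte and 20 in microglial nuclei, and pathway genes 5 in excitatory and 2 in oligodendrocyte nuclei. Same-numbered libraries deviated together with correlations of -0.03 to 0.37 over genes, but with 2 pairs and no label that a number marks a shared batch, the libraries share only a number. Depth limits Erbb3, with at most 104 UMIs in a population of a library, and Egfr outside neurons and astrocytes.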

Other observations

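4 clusters carried no cell type name, and 3 of them were rich in Erbb4. In 516 nuclei led by Chst9, Foxp2 and Tshz1 it ranged from 7342 to 9090 CPM over the libraries, with Egfr at 0 to 2.93 CPM. In 119 nuclei led by Il1rapl2, Gna14 and Egfr, Erbb4 ranged from 9728 to 12104 CPM and Egfr from 623 to 824 CPM. In 215 nuclei led by Prom1, Cnksr3 and Enpp6, the last a gene known from newly formed oligodendrocytes, Erbb4 ranged from 4236 to 5937 CPM and Erbb3 from 47.6 to 117 CPM (51 UMIs in all), while Nrg3 was at 674 to 1194 CPM. Control means of Erbb4 were 5833 CPM there, 3687 CPM in OPCs and 2932 CPM in oligodendrocytes. Each library held 31 to 77 of these nuclei.

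Egfr in SST interneurons rested on 3 and 27 UMIs in control and on 5 and 26 in CrT-KO nuclei, so that replicate 1 of both genotypes was low and replicate 2 of both was high. The labels do not say that a replicate number marks anything shared.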
